A study of Mus musculus with 10 samples.

Results

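Gata3, Ikzf2 (which encodes Helios), Il1rl1, Areg, Klrg1, Nrp1, Nfil3 and Pparg are genes by which the GATA3-positive, Helios-positive and ST2-positive regulatory T cells of tissues are usually recognised. They were taken by symbol from the gene-level count table of sorted regulatory T cells, and make up 8 of its 27179 genes. All 8 passed the filter on low counts, which left 13214 genes for testing. Their levels were read in 4 groups of C57BL/6 mice: Maf-KO gut (2 libraries), WT gut (2), Maf-KO spleen (3) and WT spleen (3). WT mice carried Foxp3Cre-YFP, a Cre recombinase and yellow fluorescent reporter driven by Foxp3. Maf-KO mice carried Foxp3Cre-YFP too, together with a floxed Maf gene (Maffl/fl), so that Maf was deleted where Foxp3 is expressed. The cells had been sorted from both tissues by CD4, the T cell receptor beta chain and YFP. Age and sex were not given in the sources used here, and no label ties a library to an animal of its own, so the tests weigh only library-to-library spread, which may be technical.

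Regulatory T cells hold back other immune cells, and a share of those in barrier tissues also helps tissue to heal. Those cells respond to interleukin 33, an alarm signal released by damaged cells, through the receptor ST2, depend on the transcription factor GATA3, and secrete amphiregulin, a growth factor that acts on the epidermal growth factor receptor. Helios and neuropilin-1 are common markers of regulatory T cells that arise in the thymus of the mouse. In the intestine such cells live beside others that are induced locally and rely on c-Maf, the transcription factor encoded by Maf.

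The libraries held 8567035 to 13983965 counts. Maf had 7 and 3 counts in Maf-KO gut against 859 and 918 in WT gut, and 2, 10 and 2 counts in Maf-KO spleen against 337, 312 and 484 in WT spleen, which matched the labels. Foxp3, the defining factor of the sorted cells, averaged 193 CPM (counts scaled to the library total) in Maf-KO gut, 181 in WT gut, 119 in Maf-KO spleen and 126 in WT spleen. Library totals were scaled with the TMM factors of edgeR throughout. Maf-KO spleen replicate 1 had the highest level of its group for 6 of the 8 genes and the lowest for the other 2. In a group of 3 a library is often at an end, and the share over all genes was not counted. Where leaving out this library moved a spleen value by much, both values are given. The sorted libraries are bulk samples, so fewer cells that express a gene and less RNA per cell cannot be told apart.

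The genes lie on 6 chromosomes (build GRCm38.p6). Gata3 is at chromosome 2, 9857078 to 9887953, and Nfil3 at chromosome 13, 52967209 to 52982878, both on the minus strand. Il1rl1 is at chromosome 1, 40404864 to 40465418, on the plus strand, and Ikzf2 on the same chromosome at 69531207 to 69687351, on the minus strand. Areg is at chromosome 5, 91139599 to 91148432, and Nrp1 at chromosome 8, 128358591 to 128505476, both on the plus strand. Pparg lies at 115360879 to 115490404 of chromosome 6, on the plus strand, and Klrg1 on the same chromosome at 122270596 to 122282833, on the minus strand. Other annotated genes share 5.83% of the exonic bases of Gata3, 1.24% of those of Ikzf2 and 0.818% of those of Nrp1, and the strand setting of the counting is not given, so reads from those bases could belong to either gene. No exonic base of the other 5 genes is shared.

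Promoter windows (250 bases before to 50 after a transcription start, RefSeq, GRCm38.p6) were found for 6 of the 8 genes. They were searched on both strands for 5 short motifs. The core of the Maf recognition element was searched as TGCTGA. The core of the AP-1 site, which Fos and Jun proteins bind, was searched as TGANTCA. The site of the GATA factors was searched as AGATAA. The core of the D-box that NFIL3 binds was searched as TTANGTAA. The cyclic AMP response element was searched as TGACGTCA. The 4 windows that hold any of them, from Areg, Gata3 and Il1rl1, are printed 5′ to 3′ on the strand of the gene, with each match in capitals. All 8 genes, those without a match or a window included, differed between the tissues in WT, as described next.
Areg, chr5:91139349-91139648, plus strand: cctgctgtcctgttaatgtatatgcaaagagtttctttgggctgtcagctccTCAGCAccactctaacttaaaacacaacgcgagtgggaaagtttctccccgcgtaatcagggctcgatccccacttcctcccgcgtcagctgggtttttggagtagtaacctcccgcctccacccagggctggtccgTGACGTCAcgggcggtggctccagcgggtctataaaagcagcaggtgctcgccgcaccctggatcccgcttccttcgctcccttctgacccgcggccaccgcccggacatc
Gata3, chr2:9878551-9878850, minus strand: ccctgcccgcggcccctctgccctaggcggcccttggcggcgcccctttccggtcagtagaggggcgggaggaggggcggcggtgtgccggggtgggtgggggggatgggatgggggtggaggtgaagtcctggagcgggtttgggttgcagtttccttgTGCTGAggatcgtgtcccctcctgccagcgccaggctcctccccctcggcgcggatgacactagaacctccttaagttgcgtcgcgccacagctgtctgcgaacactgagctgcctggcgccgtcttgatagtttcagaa
Il1rl1, start 1, chr1:40429320-40429619, plus strand: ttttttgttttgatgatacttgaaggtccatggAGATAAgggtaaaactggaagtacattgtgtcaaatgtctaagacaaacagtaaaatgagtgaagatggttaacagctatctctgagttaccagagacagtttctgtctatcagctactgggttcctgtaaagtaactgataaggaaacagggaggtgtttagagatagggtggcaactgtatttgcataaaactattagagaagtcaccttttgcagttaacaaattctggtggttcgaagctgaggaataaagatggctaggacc
Il1rl1, start 2, chr1:40439379-40439678, plus strand: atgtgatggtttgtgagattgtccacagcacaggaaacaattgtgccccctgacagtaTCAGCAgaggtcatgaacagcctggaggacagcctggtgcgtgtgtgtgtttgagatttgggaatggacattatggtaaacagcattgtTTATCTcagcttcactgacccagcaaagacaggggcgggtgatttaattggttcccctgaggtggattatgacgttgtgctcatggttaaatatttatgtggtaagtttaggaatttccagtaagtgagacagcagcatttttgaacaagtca
In the Areg window TCAGCA, the Maf core read from the other strand, begins 198 bases before the start, and the cyclic AMP response element begins 61 bases before it. The Gata3 window has TGCTGA 90 bases before the start. The first Il1rl1 window has AGATAA 217 bases before its start, and the second has TCAGCA 192 and TTATCT 103 bases before its own. Over 32851 mouse promoter windows of the same length, the Maf core occurred in 19.5%, the AP-1 core in 7.81%, the GATA site in 11.2%, the D-box core in 2.32% and the cyclic AMP response element in 1.79%, so a match to the shorter motifs is common. The windows of Nrp1, Nfil3 and Pparg hold none of the 5. A match describes the letters of a window and is not a measured site.

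**Figure D1:**
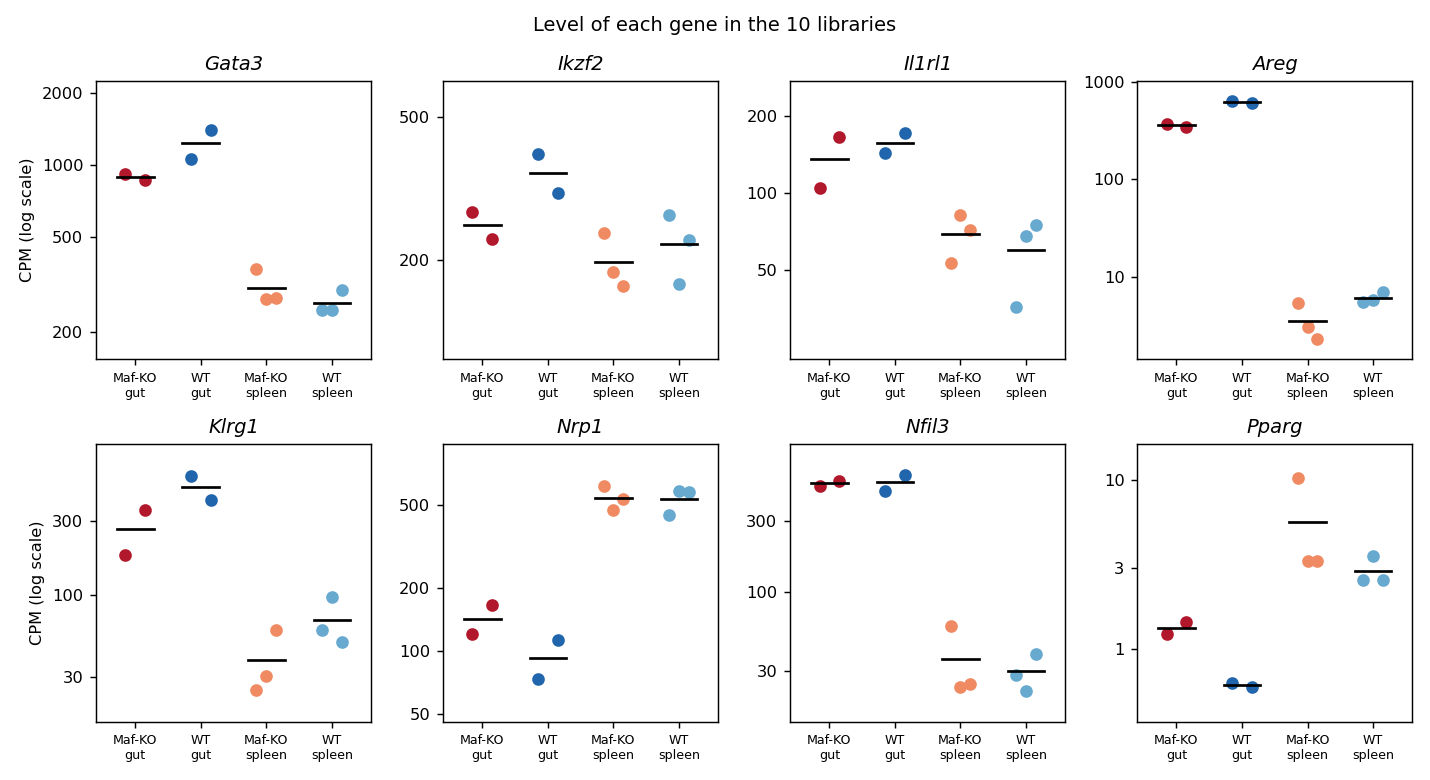
CPM (log axis, a scale of its own for each gene) of the 8 genes in the 10 libraries; each point is a library, the horizontal line is the group mean, and the groups run from left to right as Maf-KO gut, WT gut, Maf-KO spleen and WT spleen. Areg lay at 343 to 633 CPM in gut and at 2.34 to 7.12 CPM in spleen, whereas Nrp1 and Pparg were higher in spleen.

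How far these genes separate gut from spleen regulatory T cells was first read in WT. Of the 8, 6 rose in gut (Gata3, Ikzf2, Il1rl1, Areg, Klrg1 and Nfil3) and 2 fell (Nrp1 and Pparg) at an adjusted p under 0.05 (edgeR quasi-likelihood test, Benjamini-Hochberg over all genes tested). Among all 13214 genes 14.7% were called higher in gut and 13.3% lower. The groups did not overlap for any of the 8, as they did not for 25.9% of all genes in the higher and 27.5% in the lower direction. The median log2 fold change of the 8 was 1.81, against -0.03 over all genes. Scaling by library totals alone moved the median of all genes to -0.30 and the called genes to 1328 higher and 3941 lower, against 1942 higher and 1761 lower with TMM; the log2 FPKM values gave 1163 higher and 3698 lower. Each of the 8 kept its direction under every one of the 19 alternatives tried.

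Of the transcription factors, Gata3, the factor that programmes type 2 helper cells and tissue regulatory T cells, had 1066 and 1406 CPM in WT gut against 249.2, 248 and 299.5 CPM in WT spleen. Every gut library stood well above every spleen library. The log2 fold change was 2.22 (SE 0.17, adjusted p 1.466e-05, edgeR). Nfil3, a basic leucine zipper repressor that binds the D-box, had 471 and 605 CPM in WT gut against 28.4, 22.2 and 39.4 CPM in WT spleen. Its spleen libraries were all low, and the log2 fold change was 4.17 (SE 0.39, adjusted p 4.918e-05, edgeR).

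Ikzf2 moved least. It had 393 and 306 CPM in WT gut against 266, 170.5 and 227 CPM in WT spleen, so the lower gut library stood only a little above the highest spleen library. Its log2 fold change was 0.66 (SE 0.21, adjusted p 0.03793, edgeR). This call was lost in 7 of the 19 alternatives. The adjusted p was 0.1829 with library totals alone, 0.1604 on the log2 FPKM values and 0.05832 when the WT libraries were fitted alone. Leaving out WT gut replicate 1 gave 0.2491, leaving out replicate 2 or 3 of WT spleen gave 0.09971 or 0.07003, and leaving out Maf-KO spleen replicate 2 gave 0.05112.

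Pparg, the lipid-sensing nuclear receptor that builds up in regulatory T cells of visceral fat, went the other way. It was scarce everywhere, with 0.628 and 0.591 CPM in WT gut (5 counts in each library) against 2.58, 3.54 and 2.56 CPM in WT spleen (29, 46 and 27 counts). All spleen libraries were higher, and the log2 fold change was -2.23 (SE 0.63, adjusted p 0.02426, edgeR). The call rests on few reads: the adjusted p was 0.08147 with limma-voom, 0.1178 or 0.1106 when replicate 1 or 3 of WT gut was left out, and 0.06305 when WT spleen lacked replicate 2.

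Of the surface receptors, Il1rl1, which encodes the interleukin 33 receptor ST2, had 143 and 171 CPM in WT gut against 35.7, 67.8 and 74.9 CPM in WT spleen. The lowest gut library was higher than each spleen library, and the log2 fold change was 1.40 (SE 0.30, adjusted p 0.006963, edgeR). Counts per gene do not separate the membrane form of ST2 from its soluble decoy. Klrg1, an inhibitory receptor for cadherins that marks differentiated cells, had 579 and 407 CPM in WT gut against 60.4, 97.2 and 50.4 CPM in WT spleen. The gut libraries were high, with a log2 fold change of 2.83 (SE 0.41, adjusted p 8.430e-04, edgeR), or 7.10-fold.

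Nrp1, a coreceptor for semaphorins and vascular endothelial growth factor, was the abundant member that was low in gut. It had 73.1 and 113 CPM in WT gut against 449.6, 582 and 581 CPM in WT spleen. No gut library came near the spleen range, and the log2 fold change was -2.53 (SE 0.24, adjusted p 5.284e-05, edgeR), a level 5.79-fold higher in WT spleen. Nrp1 and Ikzf2, which are often used together as thymic markers, therefore differed between the tissues in opposite directions.

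The secreted factor showed the widest gap of the 8. Areg, which encodes amphiregulin, had 633 and 602 CPM in WT gut (5040 and 5090 counts) against 5.599, 5.85 and 7.12 CPM in WT spleen (63, 76 and 75 counts). Both gut libraries were high and all 3 spleen libraries were low, with a log2 fold change of 6.64 (SE 0.24, adjusted p 1.781e-07, edgeR), or 99.8-fold.

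**Figure D2:**
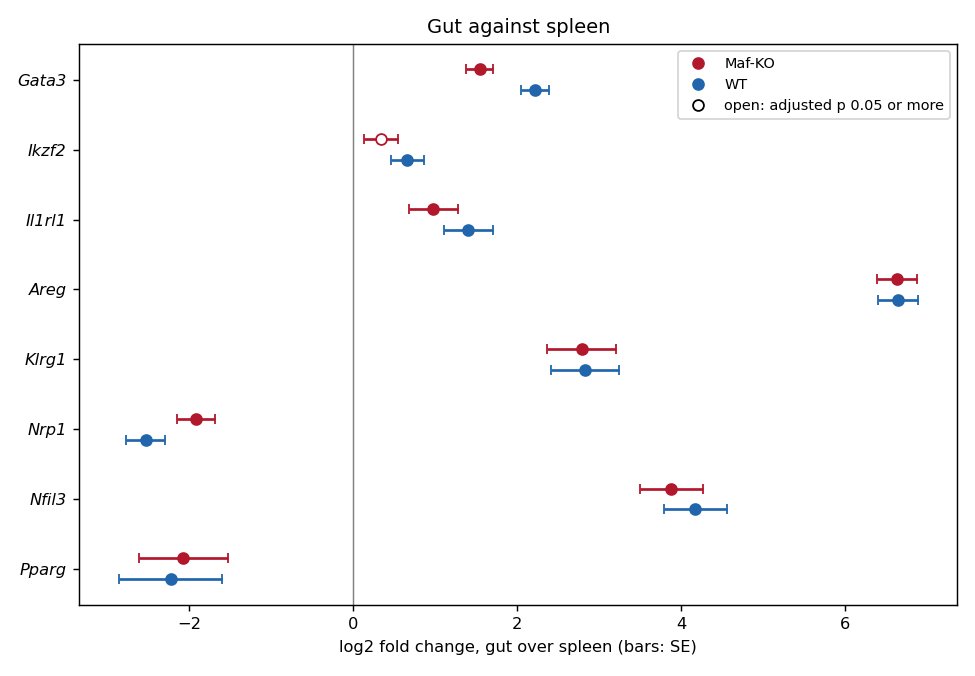
Log2 fold change of each gene in gut over spleen (horizontal axis), in Maf-KO and in WT; bars are the SE, and an open symbol marks an adjusted p of 0.05 or more. Values ran from -2.53 (Nrp1) to 6.64 (Areg) in WT, and Ikzf2 in Maf-KO is the open symbol.

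The same split between the tissues was seen in Maf-KO cells for 7 of the 8 genes: 5 rose in gut (Gata3, Il1rl1, Areg, Klrg1 and Nfil3), 2 fell (Nrp1 and Pparg) and Ikzf2 did not pass. The background was 14.4% of all genes called higher and 14.1% called lower. Library totals alone moved the median of all genes to -0.28 and the calls to 1243 higher and 3701 lower, against 1904 higher and 1868 lower with TMM; the log2 FPKM values gave 1082 higher and 3442 lower. The groups did not overlap for 5 of the 8 in the higher and 2 in the lower direction, as for 27.5% and 28.9% of all genes.

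Areg had 371.1 and 343 CPM in Maf-KO gut against 5.42, 3.08 and 2.34 CPM in Maf-KO spleen, a log2 fold change of 6.63 (SE 0.25, adjusted p 2.093e-07, edgeR). Nfil3 had 508 and 552 CPM in Maf-KO gut against 59.8, 23.7 and 24.7 CPM in Maf-KO spleen, a log2 fold change of 3.88 (SE 0.38, adjusted p 8.179e-05, edgeR). Both were low throughout Maf-KO spleen, and replicate 1 was the highest of its group for each. Gata3 had 916 and 869.5 CPM in Maf-KO gut against 366.5, 276 and 278 CPM in Maf-KO spleen, a log2 fold change of 1.54 (SE 0.17, adjusted p 1.494e-04, edgeR). Klrg1 had 181 and 352 CPM in Maf-KO gut against 25.0, 30.6 and 60.3 CPM in Maf-KO spleen, a log2 fold change of 2.78 (SE 0.42, adjusted p 9.780e-04, edgeR). Gut libraries of both genes were higher than all spleen libraries, although Klrg1 differed widely between the 2 Maf-KO gut libraries.

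Nrp1 had 120.0 and 166 CPM in Maf-KO gut against 617, 474 and 533 CPM in Maf-KO spleen, a log2 fold change of -1.92 (SE 0.23, adjusted p 2.696e-04, edgeR). Pparg had 1.22 and 1.44 CPM in Maf-KO gut (14 and 18 counts) against 10.3, 3.30 and 3.31 CPM in Maf-KO spleen (95, 30 and 34 counts), a log2 fold change of -2.07 (SE 0.55, adjusted p 0.01828, edgeR). Both genes were low in gut, and the spleen mean of Pparg owed much to replicate 1, without which its log2 fold change was -1.31. The adjusted p of Pparg was 0.05376 when the Maf-KO libraries were fitted alone and 0.1055 or 0.09009 when replicate 2 or 3 of Maf-KO gut was left out.

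Il1rl1 had 105 and 166 CPM in Maf-KO gut against 52.9, 81.8 and 71.5 CPM in Maf-KO spleen, a log2 fold change of 0.98 (SE 0.30, adjusted p 0.03612, edgeR). The gut libraries were higher, but the call was lost in 5 of the 19 alternatives: the adjusted p was 0.07461 with library totals alone, 0.09639 on the log2 FPKM values, 0.2924 when Maf-KO gut lacked replicate 3, and 0.1011 or 0.07168 when replicate 1 or 3 of Maf-KO spleen was left out. Ikzf2 had 271 and 228 CPM in Maf-KO gut against 237, 185 and 169 CPM in Maf-KO spleen, and the groups overlapped. Its log2 fold change of 0.34 (SE 0.21, adjusted p 0.2547, edgeR) did not pass. With the number shared by gut and spleen titles as a fixed block it was 0.49 (adjusted p 0.003771), and with that number as a random effect it was 0.42 (adjusted p 0.03785, limma-voom). The 4 pairs of libraries that share a title number all had more Ikzf2 in gut, by 0.55 and 0.43 on the log2 scale in Maf-KO and by 0.56 and 0.43 in WT.

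Each gut library was also set against the spleen library with its title number. For Areg these pairs differed by 6.82 and 7.08 in Maf-KO and by 6.77 and 6.36 in WT on the log2 scale, and for Nfil3 by 4.41 and 4.47 in Maf-KO and by 4.04 and 3.94 in WT, so both Maf-KO pairs were the wider ones. For Gata3 they differed by 1.73 and 1.64 in Maf-KO and by 2.10 and 2.23 in WT, and for Klrg1 by 2.56 and 2.54 in Maf-KO and by 3.26 and 3.01 in WT, so both Maf-KO pairs were the smaller ones. For Nrp1 they differed by -1.98 and -1.69 in Maf-KO and by -2.62 and -2.37 in WT, and for Pparg by -1.31 and -1.11 in Maf-KO and by -1.76 and -1.81 in WT, again with both Maf-KO pairs nearer to 0. For Il1rl1 they differed by 0.36 and 1.21 in Maf-KO and by 1.999 and 1.19 in WT and overlapped, as did those of Ikzf2. With 2 pairs in each genotype these are descriptions, and the share of all genes whose pairs separate by genotype was not counted.

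Whether loss of Maf in Foxp3-expressing cells changed these genes was tested within each tissue. None of the 8 passed in gut or in spleen by edgeR; at an unadjusted p under 0.05 there were 3 in gut (Areg, Gata3 and Nrp1; 8.14% of all genes) and 1 in spleen (Areg; 2.85% of all genes). In gut 20 of 13214 genes were called (0.151%), 2 of them higher and 18 lower, and 1076 genes had an unadjusted p under 0.05. DESeq2 called 107 genes in gut, Areg among them, limma-voom 33 and limma-trend on the log2 FPKM values 15. In spleen 2 genes were called (0.0151%), with 376 at an unadjusted p under 0.05; DESeq2 called 18, none of them one of the 8. Both contrasts had 2 or 3 libraries a group, so a p that misses the threshold does not show that the genotypes were alike.

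In gut, Areg was the member with the smallest p. It had 371.1 and 343 CPM in Maf-KO gut against 633 and 602 CPM in WT gut. Both Maf-KO libraries were lower, with a log2 fold change of -0.79 (SE 0.22, unadjusted p 0.004589, adjusted p 0.3388, edgeR); DESeq2 gave an adjusted p of 0.01044, and over the 18 alternatives the adjusted p lay between 0.01044 and 0.8911. Klrg1 had 181 and 352 CPM in Maf-KO gut against 579 and 407 CPM in WT gut, a log2 fold change of -0.89 (SE 0.45, adjusted p 0.6556, edgeR). The groups did not overlap, but the spread within each was wide: leaving out replicate 2 of Maf-KO gut gave -0.48 and leaving out its replicate 3 gave -1.44, while leaving out replicate 1 of WT gut gave -0.60 and its replicate 3 gave -1.12.

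Gata3 had 916 and 869.5 CPM in Maf-KO gut against 1066 and 1406 CPM in WT gut, a log2 fold change of -0.47 (SE 0.19, unadjusted p 0.03005, adjusted p 0.5746, edgeR). Ikzf2 had 271 and 228 CPM in Maf-KO gut against 393 and 306 CPM in WT gut, a log2 fold change of -0.49 (SE 0.23, adjusted p 0.6317, edgeR). The Maf-KO libraries lay below the WT libraries for both transcription factors. Leaving out WT gut replicate 3 gave -0.25 for Gata3, and leaving out replicate 1 gave -0.29 for Ikzf2. At the other end of the fits without 1 library, both genes reached -0.65. Nrp1 had 120.0 and 166 CPM in Maf-KO gut against 73.1 and 113 CPM in WT gut, a log2 fold change of 0.62 (SE 0.24, unadjusted p 0.02616, adjusted p 0.5435, edgeR). Pparg had 1.22 and 1.44 CPM in Maf-KO gut against 0.628 and 0.591 CPM in WT gut, a log2 fold change of 1.11 (SE 0.69, adjusted p 0.7344, edgeR). For these 2 the Maf-KO libraries were the higher ones. Nrp1 was 0.38 without Maf-KO gut replicate 3, and 0.35 and 0.97 without WT gut replicates 1 and 3.

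Il1rl1 had 105 and 166 CPM in Maf-KO gut against 143 and 171 CPM in WT gut, a log2 fold change of -0.22 (SE 0.33, adjusted p 0.924, edgeR). Nfil3 had 508 and 552 CPM in Maf-KO gut against 471 and 605 CPM in WT gut, a log2 fold change of -0.02 (SE 0.39, adjusted p 0.9945, edgeR). These 2 genes overlapped between the genotypes. In all, the gut groups did not overlap for 2 of the 8 in the higher and 4 in the lower direction, where 17.4% and 18.8% of all genes did the same, and the median log2 fold change of the 8 was -0.34 against -0.0035 over all genes.

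**Figure D3:**
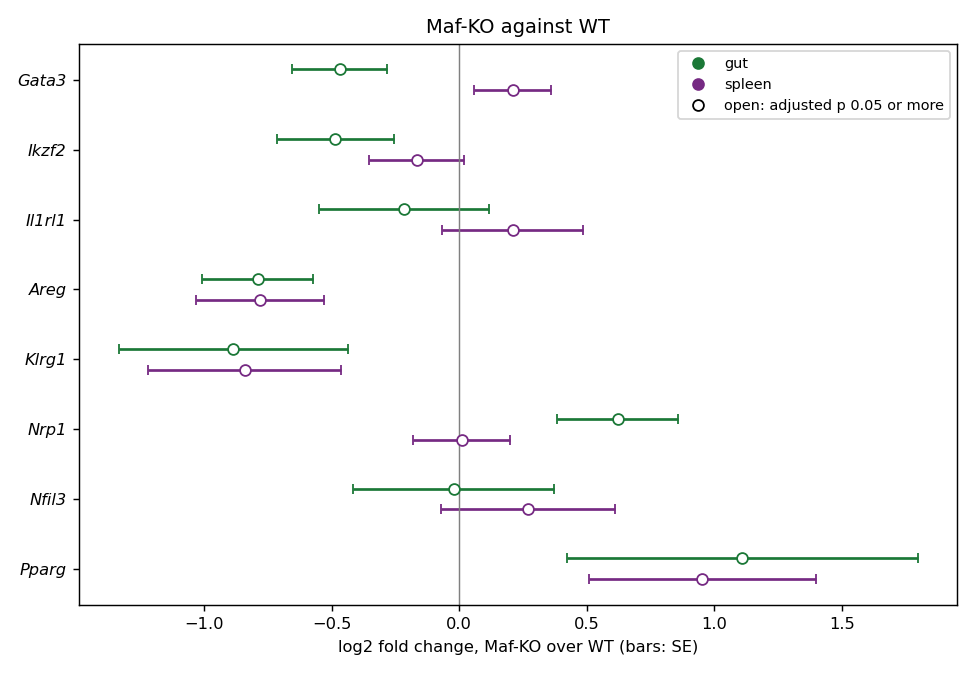
Log2 fold change of each gene in Maf-KO over WT (horizontal axis) in gut and in spleen; bars are the SE and open symbols an adjusted p of 0.05 or more, which holds for every gene. Areg lay at -0.79 in gut and -0.78 in spleen, whereas Gata3 lay at -0.47 in gut and 0.21 in spleen.

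In spleen, Areg had 5.42, 3.08 and 2.34 CPM in Maf-KO (50, 28 and 24 counts) against 5.599, 5.85 and 7.12 CPM in WT, a log2 fold change of -0.78 (SE 0.25, unadjusted p 0.01079, adjusted p 0.9993, edgeR). It was the only one of the 8 without overlap between the spleen groups, where 3.9% of all genes did not overlap in the lower direction, and Maf-KO replicate 1 came close to the lowest WT library. Without that library the log2 fold change was -1.19, and it was -0.54 without Maf-KO replicate 3. Klrg1 had 25.0, 30.6 and 60.3 CPM in Maf-KO spleen against 60.4, 97.2 and 50.4 CPM in WT spleen, a log2 fold change of -0.84 (SE 0.38, unadjusted p 0.0508, adjusted p 0.9993, edgeR). Maf-KO replicate 3 lay inside the WT range of Klrg1, and without it the log2 fold change was -1.32; without WT spleen replicate 2 it was -0.52.

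Pparg had 10.3, 3.30 and 3.31 CPM in Maf-KO spleen against 2.58, 3.54 and 2.56 CPM in WT spleen, a log2 fold change of 0.95 (SE 0.45, unadjusted p 0.05776, adjusted p 0.9993, edgeR). The difference rested on Maf-KO spleen replicate 1: without it the log2 fold change was 0.19. Gata3 differed by 0.21 (SE 0.15), Ikzf2 by -0.17 (SE 0.19), Il1rl1 by 0.21 (SE 0.28), Nrp1 by 0.01 (SE 0.19) and Nfil3 by 0.27 (SE 0.34) on the log2 scale, each with an adjusted p of 0.9993 in edgeR, and Maf-KO and WT spleen libraries overlapped for all 5. Without Maf-KO spleen replicate 1 the value of Nfil3 was -0.31, of Gata3 0.0613, of Ikzf2 -0.32, of Il1rl1 0.37 and of Nrp1 -0.0948, so Nfil3 and Nrp1 changed sign.

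Whether the genotype difference itself changed between the tissues was tested with an interaction term (the Maf-KO against WT difference in gut minus that in spleen). No gene of 13214 was called by edgeR (0%), 422 had an unadjusted p under 0.05, and DESeq2 called 8, none of them one of the 8 genes described. Gata3 had the smallest p of the members, with a difference of -0.68 on the log2 scale (SE 0.24, unadjusted p 0.01796, adjusted p 0.9999, edgeR). Nrp1 had a difference of 0.61 (SE 0.30, unadjusted p 0.07269, adjusted p 0.9999, edgeR). For Areg the difference was -0.01 and for Klrg1 -0.04, each with an adjusted p of 0.9999. With the title number as a fixed block in edgeR, which sets each gut library against the spleen library of its number, none of the 8 passed either. In that fit 963 genes had an unadjusted p under 0.05, 5 of the 8 among them. The difference was then -0.58 for Klrg1 (unadjusted p 0.00311, adjusted p 0.3604), 0.66 for Nrp1 (unadjusted p 0.003223, adjusted p 0.3672), -0.48 for Gata3 (unadjusted p 0.009034, adjusted p 0.4913), 0.45 for Nfil3 (unadjusted p 0.01053, adjusted p 0.5004), -0.79 for Il1rl1 (unadjusted p 0.03523, adjusted p 0.6498) and 0.44 for Areg (unadjusted p 0.09985, adjusted p 0.7689).

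The mean of the gut and spleen genotype differences was tested as well, a contrast added after seeing that Areg and Klrg1 were lower in Maf-KO in both tissues. The edgeR fit of this contrast takes no account of the pairing. None of the 8 passed, where 32 of all genes did (0.242%) and 1221 had an unadjusted p under 0.05. Areg differed by -0.79 (SE 0.17, unadjusted p 7.869e-04, adjusted p 0.1578, edgeR). All 5 Maf-KO libraries lay below every WT library of their tissue, which was known when the contrast was chosen. Of all genes, 18.8% did so in gut and 3.9% in spleen, and the share that did so in both was not counted. Both Maf-KO gut libraries share a title number with a Maf-KO spleen library, so the 5 Maf-KO libraries are not independent. The adjusted p of Areg was 0.01865 without Maf-KO spleen replicate 1, 0.02117 without the filter on low counts and 1.055e-04 with DESeq2. With the title number as a random effect, which allows for the pairing, 9 genes were called and the adjusted p of Areg was 0.4338 (limma-voom). It ranged up to 0.4653 over the 17 alternatives. Klrg1 differed by -0.86 (unadjusted p 0.0148, adjusted p 0.441), Pparg by 1.03 (unadjusted p 0.03042, adjusted p 0.4933; 0.65 without Maf-KO spleen replicate 1) and Nrp1 by 0.32 (adjusted p 0.5699), all by edgeR.

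Levels can be set beside each other between genes only per length, for which the deposited log2 FPKM values were read. In Maf-KO gut the order was Areg (8.11), Gata3 (8.01), Nfil3 (7.95) and Klrg1 (7.43), whose libraries overlapped between neighbours, followed at a distance by Ikzf2 (4.62), Nrp1 (4.47) and Il1rl1 (4.14), whose libraries also overlapped, and by Pparg (-0.66). In WT gut it was Areg (8.93), which stood above its neighbour, then Gata3 (8.49), Klrg1 (8.39) and Nfil3 (7.98), which overlapped in turn, then Ikzf2 (5.12), Il1rl1 (4.41), Nrp1 (3.86) and Pparg (-1.72), each clear of the next. Areg thus headed the order of means in both gut groups. In Maf-KO spleen Gata3 (6.70) and Nrp1 (6.64) overlapped at the top, and Klrg1 (4.86), Ikzf2 (4.51) and Nfil3 (4.18) overlapped in turn. Il1rl1 (3.42) came next without overlap, but its highest library (3.69) lay close to the lowest of Nfil3 (3.70). Areg (1.65) and Pparg (1.43) overlapped at the bottom. In WT spleen Nrp1 (6.65) and Gata3 (6.52) overlapped, Klrg1 (5.77) was clear of its neighbours, Ikzf2 (4.69) and Nfil3 (4.03) overlapped, as did Il1rl1 (3.18) and Areg (2.52), and Pparg (0.70) was lowest. By group mean Areg was therefore the highest of the 8 per length in gut and next to last in spleen. Its libraries overlapped those of a neighbour in the order in every group but WT gut.

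**Figure D4:**
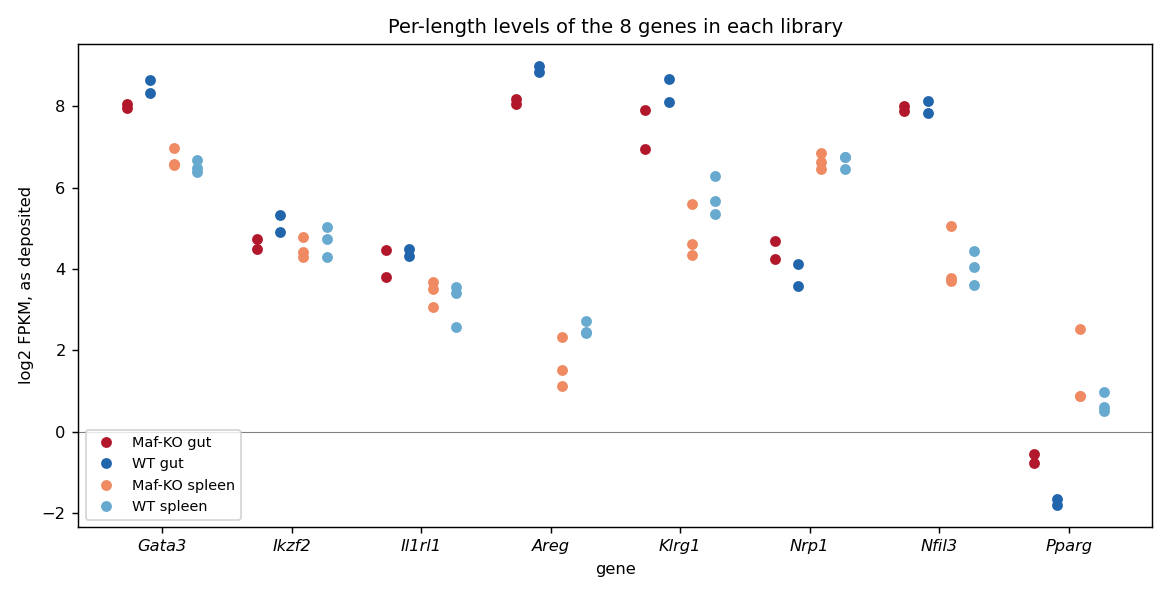
Deposited log2 FPKM (vertical axis) of the 8 genes in each of the 10 libraries; colours mark Maf-KO gut, WT gut, Maf-KO spleen and WT spleen. Areg ran from 1.12 to 8.996 over the libraries, a wider range than any other of the 8, and Ikzf2 only from 4.30 to 5.33.

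The wider pathways were read from lists of related genes, counted over the genes tested. Each list but that of other tissue regulatory T cell genes holds 1 of the 8 genes described, which is in its counts, and the shares to read them against are those over all genes: 14.4% higher and 14.1% lower in Maf-KO, and 14.7% higher and 13.3% lower in WT. Of the GATA3 and type 2 list, 5 of 9 rose in gut in Maf-KO and 5 of 9 in WT, and none fell; the list's median was 0.86 in Maf-KO (all genes -0.02) and 1.56 in WT (all genes -0.03). Il17rb, the receptor for interleukin 25, differed by 3.82 in Maf-KO (SE 0.25) and 4.98 in WT (SE 0.26). Ccr8, a chemokine receptor of tissue regulatory T cells, differed by 1.88 in Maf-KO (SE 0.55) and 2.51 in WT (SE 0.56), and Ccr4, another homing receptor, by 1.24 in Maf-KO (SE 0.23) and 1.56 in WT (SE 0.24). These are differences on the log2 scale, all past the threshold in edgeR.

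Of the IL-33 receptor list, the chain by which ST2 signals, 3 of 10 rose in gut and 1 fell in each genotype, where 28.5% of all genes were called either way in Maf-KO and 28% in WT, with medians of -0.23 in Maf-KO and -0.17 in WT. Besides Il1rl1 itself, the kinase gene Irak2 rose by 0.72 in Maf-KO (SE 0.17) and 0.63 in WT (SE 0.17), and the ubiquitin ligase gene Traf6 by 0.52 (SE 0.11) in Maf-KO and 0.37 (SE 0.11) in WT. Mapk14, the p38 kinase, fell, with -0.48 in Maf-KO (SE 0.15) and -0.65 in WT (SE 0.15). The called changes beneath the receptor were smaller on the log2 scale than that of Il1rl1 in the same genotype.

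Of the ligands of the epidermal growth factor receptor and their shedding enzymes, 3 of 10 rose in gut in Maf-KO and none fell, while in WT 4 rose and 1 fell; the medians were 0.11 in Maf-KO and -0.09 in WT. Tgfa, which encodes another ligand of that receptor, was called higher in gut in each genotype, but on few reads: it had 53 counts over the Maf-KO gut libraries against 5 over Maf-KO spleen, and 37 over WT gut against 2 over WT spleen. Rhbdf1, which helps to traffic the shedding protease, differed by 1.56 in Maf-KO (SE 0.39) and 2.50 in WT (SE 0.41). Erbb3, a receptor gene of the same family, fell in WT, with -0.76 (SE 0.19). The protease genes Adam10 and Adam17 did not pass in either genotype.

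Of the Ikaros family, Ikzf3 (Aiolos) alone rose in Maf-KO gut, by 1.10 (SE 0.12), with the other 4 not called. In WT gut Ikzf3 rose by 1.31 (SE 0.12) beside Ikzf2, while Ikzf1 (Ikaros) fell, with a log2 fold change of -0.74 (SE 0.14). Of the 4 genes of the NFIL3 and PAR bZIP list, whose products compete for the same D-box, 2 rose and 1 fell in gut in each genotype. Hlf differed by 2.97 in Maf-KO (SE 0.36) and 3.69 in WT (SE 0.36), and Dbp, a clock output gene, by -1.76 in Maf-KO (SE 0.29) and -1.67 in WT (SE 0.30). The medians of these lists were 0.05 in Maf-KO and 0.39 in WT for the Ikaros family, and 1.55 in Maf-KO and 1.71 in WT for the bZIP genes.

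Of the neuropilin, plexin and semaphorin list, 1 of 9 rose and 2 fell in Maf-KO gut, and 1 rose and 3 fell in WT gut, with medians of -0.60 in Maf-KO and -0.11 in WT. Sema4a, which encodes a ligand of neuropilin-1 on immune cells, fell with Nrp1, with -3.10 in Maf-KO (SE 0.43) and -4.40 in WT (SE 0.49), whereas Vegfa, another neuropilin ligand, was called higher in gut on few reads, with 64 counts over Maf-KO gut against 4 over Maf-KO spleen and 48 over WT gut against 9 over WT spleen. Of the PPARG, RXR and lipid list, 2 of 12 rose and 4 fell in Maf-KO gut and 3 rose and 3 fell in WT gut, with medians of -0.10 in Maf-KO and 0.02 in WT. Dgat1, which makes triglyceride, was 3.96 higher in Maf-KO gut (SE 0.21) and 3.82 higher in WT gut (SE 0.21), and Scd2, a desaturase gene, differed by -0.86 in Maf-KO (SE 0.20) and -1.39 in WT (SE 0.21). Both tested genes of the KLRG1 and cadherin list rose in each genotype; Cdh1, which encodes the KLRG1 ligand E-cadherin and is a gut epithelial marker too, differed by 3.39 in Maf-KO (SE 0.58) and 2.18 in WT (SE 0.61), and the list's medians were 3.09 in Maf-KO and 2.50 in WT.

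Of the list of other factors and products of tissue regulatory T cells, 11 of 15 rose and 1 fell in Maf-KO gut, and 13 rose and 1 fell in WT gut, with medians of 1.91 in Maf-KO and 2.32 in WT. Rora, a nuclear receptor, differed by 3.42 in Maf-KO (SE 0.14) and 3.22 in WT (SE 0.14), and Cxcr6, a homing receptor, by 3.46 in Maf-KO (SE 0.22) and 4.40 in WT (SE 0.23). Gzmb, which encodes a cytotoxic protease, differed by 6.92 in Maf-KO (SE 0.48) and 6.12 in WT (SE 0.46). Bach2, a repressor of effector programmes, fell in both, with -2.72 in Maf-KO (SE 0.35) and -3.11 in WT (SE 0.37).

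Between the genotypes within a tissue only Il10, of all the pathway genes tested, passed: in gut it fell with a log2 fold change of -2.37 (SE 0.25, adjusted p 0.006408, edgeR). In spleen no pathway gene passed. The genes nearest to the members by unadjusted p in gut did not pass either. Cdh1 differed by 1.98 (SE 0.62, adjusted p 0.4246), Tef, of the bZIP genes, by 0.52 (SE 0.16, adjusted p 0.4125), Scd2 by 0.74 (SE 0.22, adjusted p 0.3954) and Plxnd1, a plexin gene, by -1.07 (SE 0.36, adjusted p 0.4721), all by edgeR.

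**Figure D5:**
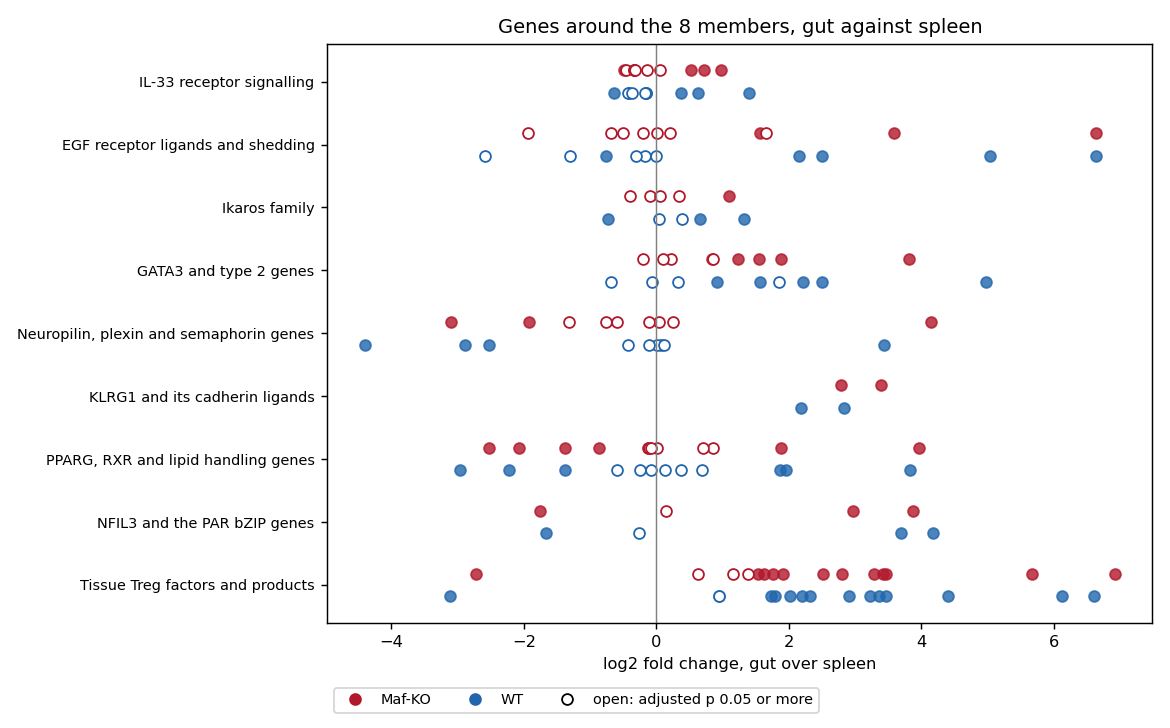
Log2 fold change in gut over spleen (horizontal axis) of each tested gene of the 9 pathway lists, the 8 genes included, in Maf-KO (upper row of each list) and in WT (lower row); each point is a gene, and an open point has an adjusted p of 0.05 or more. In the tissue Treg list 11 of 15 rose in Maf-KO and 13 of 15 in WT, and in the IL-33 receptor list 3 of 10 rose in each.

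Some markers of other cells and of cell handling differed between the tissues as well. The summed level of 12 immediate-early genes (a list added after seeing the data, among them Fos, Jun and Atf3, which respond within minutes to stimulation or to tissue digestion) was 16320 to 17200 CPM in Maf-KO gut, 17920 to 21480 in WT gut, 2040 to 2811 in Maf-KO spleen and 2319 to 4070 in WT spleen. Of these genes 9 were called higher and 1 (Egr2) lower in gut in Maf-KO, and 10 higher and the same 1 lower in WT, against the shares over all genes given above. Areg and Nfil3 can also be induced by acute stimulation. The 11 ILC2 markers that are not among the 8 summed to 1015 to 1093 CPM in Maf-KO gut, 1125 to 1273 in WT gut, 303 to 377 in Maf-KO spleen and 278 to 608 in WT spleen. The full ILC2 list has 17 genes, some of the 8 among them, and 14 were tested. Of those tested, 10 were called higher and 1 lower in gut in each genotype. The list's median log2 fold change was 2.42 in Maf-KO and 2.60 in WT. Of the 11 summed markers, Rora (551 CPM), which is also in the tissue Treg list, and Il7r (475 CPM) had the largest means in WT gut. Il17rb averaged 81.5 CPM in Maf-KO gut and 112.5 in WT gut, against 5.76 in Maf-KO spleen and 3.53 in WT spleen. Nmur1 averaged 16.1, 26.1, 1.001 and 1.199 CPM in the same order, and Calca had 24, 64, 0 and 3 counts. Arg1 and Ptgdr2 had lower means in gut, and averaged at most 1.17 CPM in any group. The cytokine genes that define ILC2, Il5 and Il13, averaged at most 0.244 CPM in any group, and no library exceeded 0.434 CPM.

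The 14 mast cell and basophil markers summed to 69.2 to 96.2 CPM in Maf-KO gut, 68.2 to 112 in WT gut, 6.04 to 13.0 in Maf-KO spleen and 7.70 to 20.8 in WT spleen. Most of the gut level was Kit. Of the 14 genes, 11 had no count in Maf-KO gut, 7 in WT gut and 5 in each spleen group. Mcpt1, Tpsab1 and Tpsb2 had none in any library. Hdc had 106 counts over Maf-KO gut, 90 over WT gut, 77 over Maf-KO spleen and 206 over WT spleen. Cpa3 had 10, 11, 23 and 34 counts in the same order. The 9 CD8 T and NK markers summed to 4197 to 4580 CPM in Maf-KO gut, 2683 to 2924 in WT gut, 63.1 to 148 in Maf-KO spleen and 79.6 to 124 in WT spleen. Gzma made up most of the gut level, whereas Cd8a averaged 9.32 CPM in Maf-KO gut, 6.66 in WT gut, 13.6 in Maf-KO spleen and 14.0 in WT spleen.

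The 8 B and plasma cell markers, in gut mostly Jchain, summed to 1176 to 3456 CPM in Maf-KO gut, 2094 to 6443 in WT gut, 194 to 461 in Maf-KO spleen and 219 to 366.2 in WT spleen. The 10 gut epithelial markers, mostly Epcam, summed to 146 to 157 CPM in Maf-KO gut, 139 to 176 in WT gut, 32.3 to 68.5 in Maf-KO spleen and 36.7 to 60.3 in WT spleen. The 9 pancreatic acinar markers summed to 15.8 to 27.3 CPM in Maf-KO gut, 38.7 to 173 in WT gut, 6.39 to 26.0 in Maf-KO spleen and 7.62 to 11.7 in WT spleen, so libraries of 1 group differed in them. The sum of the 12 endothelial and stromal markers, mostly Pecam1, was higher in spleen. It was 45.6 to 80.5 CPM in Maf-KO gut, 66.7 to 67.4 in WT gut, 116 to 176 in Maf-KO spleen and 129.5 to 193 in WT spleen. Single genes went both ways: of 7 tested, 2 were called higher and 1 lower in gut in Maf-KO, and 2 higher and 2 lower in WT. The stromal gene Col3a1 averaged 3.30 CPM in Maf-KO gut and 5.335 in WT gut, against 0.0325 in Maf-KO spleen and 0.0593 in WT spleen. The 11 macrophage and monocyte markers overlapped between the tissues, with 111 to 340 CPM in Maf-KO gut, 117 to 267 in WT gut, 121 to 303 in Maf-KO spleen and 154.5 to 324 in WT spleen. The 8 dendritic cell markers summed to 114 to 121.5 CPM in Maf-KO gut, 102.5 to 129 in WT gut, 71.3 to 94.4 in Maf-KO spleen and 72.6 to 116 in WT spleen. The part of any of these cells, or of tissue handling, in the levels of the 8 genes was not tested. Adipocyte markers, of interest beside Pparg, summed to at most 1.24 CPM in any library.

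Within groups the 8 genes did not vary as a block. After group means were removed, Areg and Nfil3 correlated over the 10 libraries (Pearson r 0.85), but r was 0.37 without Maf-KO spleen replicate 1, and for Areg and Pparg r was 0.83 with that library and -0.29 without it. Gata3 and Nfil3 had r 0.88 with it and 0.80 without it. Areg and Klrg1 ran opposite, with r -0.67 and -0.68. These are descriptions over libraries that share groups of 2 or 3.

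The genes whose log2 CPM was most like that of each member over the 10 libraries were read from 9500 genes of at least 5 CPM on average, again with libraries that share tissue groups. After group means were removed r was lower for all of them. Areg was most like Cd83, Cebpb and Odc1 (r 0.99 each), with 0.68, 0.64 and 0.0246 within groups; for the other genes named r within groups was 0.65 to 0.97. Nfil3 was most like Bhlhe40, Dusp14 and Plscr1 (0.998, 0.996 and 0.996). Gata3 was most like Ppp2r3a, AW011738 and Zfp36l1 (0.99 each), and Nrp1 most like Pdzk1ip1, Gusb and Surf6 (0.99 each). Klrg1 was most like Tdrkh (0.98) and Nckap5 (0.97), and Pparg most like Ak3 (0.97), Tiam1 (0.97) and Cxcr3 (0.96). Ikzf2, which differed little between tissues, was most like Ergic2 (0.98), Ivns1abp (0.97) and Casp4 (0.97), and Il1rl1 most like Mex3c (0.96), Stxbp5 (0.95) and Gxylt1 (0.95).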

How the data were processed

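RNA of sorted regulatory T cells was sequenced in 10 libraries. The authors deposited a table of raw counts per gene, not normalized, and log2 FPKM values of 12252 genes per library. Per the submitters' processing notes, Subread, featureCounts and limma were used with the builds GRCm38 and mm10; their versions, the annotation release and whether counting used strand were not stated there. Groups came from the sample labels.

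The members, the gene lists and the tests were chosen with earlier results of these data known, and the immediate-early list and the mean genotype contrast after seeing the values. The tests were run with edgeR 4.0.16 (R 4.3.3): filterByExpr (minimum count 10, minimum total 15; 13214 genes), TMM (factors 0.887 to 1.12), then 1 quasi-likelihood fit over the 10 libraries with group coefficients (dispersion 0.0431, median prior df 3.97). Contrasts were tested two-sided, with Benjamini-Hochberg adjustment across the 13214 genes, and called at an adjusted p under 0.05. The SE is the size of the log2 fold change divided by the square root of F. Alternatives used DESeq2 1.42.0 and limma 3.58.1; steps were tested on simulated data. Genes named were the 8 members, up to 4 called genes of each list by adjusted p or up to 2 by unadjusted p where none was called, and the 3 genes most like each member. Some were left out for brevity, and 1 gene that the rule names is not reported here. Gene positions and promoters came from RefSeq (GRCm38.p6), and shared exonic bases from GENCODE.

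Gut and spleen libraries that share the number in their titles deviated together from their group means (r 0.38 and 0.36 in Maf-KO, 0.31 and 0.26 in WT over 13214 genes). That number was therefore used to pair them. The 2 libraries of a gut group deviate from their mean as mirror images, so the 2 values of a genotype are not independent. Between 8567035 and 13983965 counts per library put 3 counts at 0.215 to 0.35 CPM, for counting error only.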

Additional observations from a re-analysis of the deposited data

How the results depend on the processing

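Gata3, Areg, Klrg1, Nrp1 and Nfil3 kept both gut against spleen calls in all 19 alternatives. Members called in gut against spleen ranged from 5 to 7 in Maf-KO and from 6 to 8 in WT when a library was left out. The genes called for Maf-KO against WT in gut numbered 107 with DESeq2 (1 member), 74 with no filter on low counts, 42 with the title number as a random effect (replicate block), 33 with limma-voom, 12 with the gut libraries alone and 4 to 22 without 1 library each. In spleen they numbered 18 with DESeq2, 12 with no filter, 5 on the log2 FPKM values, 1 with the spleen libraries alone, 0 with limma-voom and with either replicate block, and 2 to 9 without 1 library each. The random effect (replicate block) called 5777 genes for gut against spleen in Maf-KO; without 1 library each the count was 2118 to 3784 there and 2183 to 3597 in WT. DESeq2 called 8 genes for the interaction. For the mean genotype effect 1 member (Areg) was called with DESeq2, with no filter and, of the fits without 1 library each (0 to 1), without Maf-KO spleen replicate 1. Spleen libraries with the same replicate number did not deviate together (r -0.04, -0.18 and -0.35), so they share only a number. The random effect was run for every contrast and the fixed block for all but Maf-KO against WT in gut and the mean effect. No title number holds both genotypes, so the fixed block for Maf-KO against WT in spleen cannot be that number. That fit therefore takes no account of the pairing of gut and spleen. Apart from the calls for Ikzf2 in gut against spleen in Maf-KO, the random effect and the fixed block changed no call of the 8. The values that changed sign were all uncalled. For the interaction, Areg was 0.0144 with no filter, 0.0631 with limma-voom, 0.0608 on the log2 FPKM values, 0.12 with the random effect and 0.44 with the fixed replicate block, and Nfil3 was 0.0595 with the random effect and 0.45 with the fixed block. Nfil3 in gut was 0.23 with the random effect. Nrp1 in spleen was -0.0054 with library totals alone and -0.0093 on the log2 FPKM values. The mean effect of Il1rl1 was 0.0013 with no filter and 0.0038 with limma-voom. Without 1 library each, the interaction ran from -0.26 to 0.40 for Areg, -0.60 to 0.43 for Klrg1, -0.54 to 0.28 for Nfil3 and -0.12 to 0.92 for Pparg. The gut genotype difference ran from -0.58 to 0.0785 for Il1rl1 and -0.19 to 0.17 for Nfil3, and the spleen one from -0.0524 to 0.41 for Il1rl1, -0.31 to 0.51 for Nfil3 and -0.10 to 0.10 for Nrp1. The mean effect ran from -0.19 to 0.14 for Il1rl1 and -0.16 to 0.24 for Nfil3. The cause of these shifts was not tested. With 5 counts of Pparg in each WT gut library, its levels there are close to the floor of 3 counts.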
